A study of Mus musculus with 4 samples.

Results

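The adenylate cyclases, the phosphodiesterases and the subunits of protein kinase A (PKA) and protein kinase C (PKC) were compared between RNA on the tagged ribosomes of midbrain dopamine neurons and RNA of the whole midbrain. Members were taken by gene symbol from the annotation of the arrays, and they number 45 of 18193 genes with a probe set of their own. They are 10 cyclases, 21 phosphodiesterases, 6 PKA subunits and 8 PKC isoforms, measured by 116 probe sets, and each gene is given by 1 probe set, the one whose log2 values averaged highest on the 4 arrays. The TRAP fraction (replicates 2 and 4) is RNA from ribosomes carrying EGFP/RPL10A, a GFP-tagged ribosomal protein driven by a BAC with the Slc6a3 (dopamine transporter) gene. The input fraction (replicates 1 and 2) is RNA of the midbrain dissection, labelled unbound (total) RNA by the submitters. All 4 arrays, input included, come from adult mice of both sexes of the Slc6a3 JD1640 TRAP line, aged 6 to 12 weeks, with 5 mice pooled for each array. Input was taken in parallel with TRAP, so TRAP replicate 2 and input replicate 2 may come from the same pool of mice. The line is 1 integration of the transgene, started on FVB and bred to C57BL6/j, so no array comes from mice without it.

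Adenylate cyclases make cyclic AMP in response to G proteins and, for some isoforms, calcium. Phosphodiesterases break down cyclic AMP, cyclic GMP or both, and so set how long and how far the signal reaches. PKA is a tetramer of regulatory and catalytic subunits that falls apart when cyclic AMP binds the regulatory subunits, while PKC isoforms respond to diacylglycerol and calcium downstream of phospholipase C. In dopamine neurons inhibitory dopamine autoreceptors act on this cascade, and PKA phosphorylates tyrosine hydroxylase, the enzyme that limits dopamine synthesis.

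Levels are in arbitrary expression units, which are 2 raised to the deposited log2 values, and can be compared between arrays for 1 probe set but not between probe sets. Array medians were 7.28 and 7.14 units for TRAP, against 10.2 and 10.1 units for input, and 35.2% to 35.8% of probe sets reached 50 units, taken here as background. Of 10 dopamine neuron markers, 6 were at 50 units or more on all 4 arrays, and all 6 rose in TRAP, with log2 fold changes of 2.60 to 5.72. En1, Foxa2 and Pitx3 were under 50 units on both input arrays and at least 23.7-fold, 15.3-fold and 4.24-fold higher in TRAP, taking input as 50 units, and Kcnj6 was under 50 units throughout. The 7 astrocyte markers and 8 oligodendrocyte markers at 50 units or more on all 4 arrays had negative values, with medians of -1.79 and -1.23, of which 1 and 0 passed the test. The summed level of the oligodendrocyte markers was 81837 and 35593 units on TRAP replicates 2 and 4, against 97675 and 100253 units on input replicates 1 and 2. For the Gapdh controls, the 3′ probe sets exceeded the 5′ ones by 4.96 and 3.52 log2 units in TRAP and by 6.81 and 6.39 in input. The part of other cell types and of RNA quality in the results below was not tested, and in bulk fractions fewer cells of a type and less RNA per cell cannot be told apart.

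Of the 45 genes, 34 had a mean log2 level over the 4 arrays of at least that of 50 units, a filter that does not use the fraction. Among these 34, the cAMP-dependent kinase subunits Prkar1a and Prkaca rose in TRAP, and the cyclases Adcy7 and Adcy8 and the phosphodiesterases Pde3b, Pde5a and Pde8b fell. A gene was called at a limma adjusted p under 0.05, with Benjamini-Hochberg adjustment over all 45037 probe sets tested. These include 15551 probe sets with identical values within both fractions, so the threshold is not an error rate for the genes past the filter alone. With only probe sets past the filter fitted, Prkaca, Adcy8 and Pde3b were not called (limma adjusted p = 0.176, 0.0508 and 0.237). The 4 others were still called, and Pde2a, Pde6d and Prkar2b were called higher. The 2 rises are 5.88% of the 34 genes, against 17.7% of all 9507 genes past the filter. The 5 falls are 14.7%, against 5.34% of all genes. Both TRAP arrays lay above both input arrays for 14 of the 34 genes (41.2%, against 52.4% of all genes) and below both for 11 (32.4%, against 22.0% of all genes). Before adjustment, a limma p under 0.05 was reached by 7 genes higher (20.6%, against 27.0% of all genes) and 7 genes lower (20.6%, against 9.04% of all genes) in TRAP. Errors after ± are standard errors from limma unless another is named. With 1 array left out, limma called Prkar1a and Adcy8 only when it was an input array, Pde8b only when it was a TRAP array, and Prkaca, Adcy7 and Pde3b in 0 of 4 such fits. Pde5a was called in all 4, but its TRAP values are identical, so those fits give no measure of its stability. The median log2 fold change was -0.50 for the 8 cyclases past the filter, -0.46 for the 14 phosphodiesterases, 0.48 for the 6 PKA subunits and 0.51 for the 6 PKC isoforms, where all 9507 genes had a median of 0.44. Set against the median of all genes these are -0.93, -0.89, 0.04 and 0.07. After quantile normalization of the arrays, which moved the median of all genes by -0.39, the PKC median was -0.00 and the PKA median 0.05, and both family medians of cyclases and phosphodiesterases stayed negative.

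**Figure D1:**
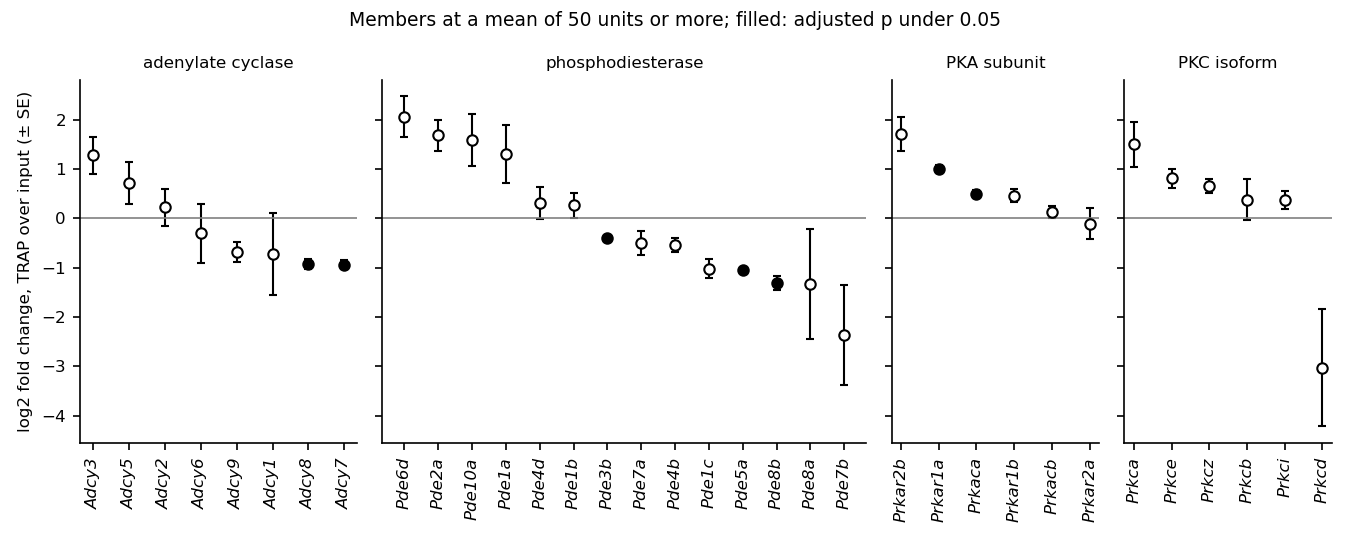
Log2 fold change of TRAP over input with its standard error for the 34 genes past the mean filter, by family, each gene on its own probe set; filled points passed the test. Cyclases and phosphodiesterases lie on both sides of 0, and 5 of the 6 PKA subunits and 5 of the 6 PKC isoforms lie above it. Of all 9507 genes past the filter, 6343 had values above 0.

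Of the 6 PKA subunits, 5 had positive log2 fold changes, as did 6343 of all 9507 genes past the filter, and 2 rose (33.3%, against 17.7% of all genes). Prkar1a, the type I alpha regulatory subunit, which is made in most tissues, was at 4380 and 4521 units on TRAP replicates 2 and 4, against 2348 and 2090 units on input replicates 1 and 2. The TRAP arrays were close to each other and the fractions did not overlap, and the log2 fold change was 1.01 ± 0.08 (limma adjusted p = 0.0115). Prkaca, the main catalytic subunit, was at 19417 and 18531 units in TRAP and 12677 and 14268 units in input, a log2 fold change of 0.50 ± 0.09 (limma adjusted p = 0.0453). Its change was close to the median of all genes, 0.44, and the gene was not called after quantile normalization or centring of the arrays, under both of which Prkar1a was called. With probe sets averaged Prkaca was called (log2 fold change 0.89 ± 0.07, limma adjusted p = 0.0149) and Prkar1a was not (0.43 ± 0.12, limma adjusted p = 0.1025). The average for Prkar1a takes in a probe set below the filter, at 7.94 units on both TRAP arrays and 12.5 units on both input arrays. On its other probe set past the filter Prkar1a did not pass (0.94 ± 0.32, limma adjusted p = 0.1225).

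The remaining 4 PKA subunits did not pass. Prkar2b, the type II beta regulatory subunit, known as the main regulatory form in much of the forebrain and in fat, was at 3676 and 4022 units in TRAP and at 1525 and 914 units in input. Both TRAP arrays were above both input arrays, with a log2 fold change of 1.70 ± 0.35 (limma adjusted p = 0.0608). Prkar1b, the type I beta regulatory subunit, found mainly in neurons, was at 34576 and 35504 units in TRAP and 23217 and 28155 units in input, with a log2 fold change of 0.45 ± 0.13 (limma adjusted p = 0.0912). The catalytic subunit gene Prkacb had a log2 fold change of 0.13 ± 0.12 and the type II alpha regulatory subunit gene Prkar2a -0.11 ± 0.31, and the fractions overlapped for both.

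Promoter sequence is shown for the members that carry the cyclic AMP response element, the site bound by CREB, a transcription factor that PKA phosphorylates. RefSeq promoters (GRCm38.p6, 250 bases before to 50 bases after a start site) were held for 35 of the 45 genes. The full element, TGACGTCA, which reads the same on both strands, was in the promoters of Prkar1a and Prkcz, 2 of these 35 genes, against 2.03% of 27025 genes with a promoter. The shorter core, TGACGT on either strand, which the full element contains, was in 5 of the 35 genes, against 8.37% of all genes with a promoter, the others being Adcy9, Pde4a and Pde4b. The 35 genes hold 75 promoters and the 27025 genes 32851, so members have more promoters per gene in which to find a match. Counted by promoter, the full element was in 3 of the 75, against 1.79% of all promoters, and the core in 7, against 7.51%. These counts take in overlapping promoters of Prkar1a that hold the same site, so they are not counts of distinct sites. The windows are read 5′ to 3′ on the strand of the gene, with the element or core in capitals.
Prkar1a (full element, chr11:109650889-109650918, plus strand): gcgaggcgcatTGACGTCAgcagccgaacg
Prkcz (full element, chr4:155345778-155345807, minus strand): ttgtttccgtgTGACGTCAgctcctccgta
Pde4b (core, chr4:102421508-102421537, plus strand): tgatttggctgcACGTCAattttctcatct
Pde4a (core, chr9:21184038-21184067, plus strand): tggcacagctcgACGTCAggctggggagga
Adcy9 (core, chr16:4420505-4420534, minus strand): cggacccggcggTGACGTgcgcgggccgcg
A match describes these letters only. Of the genes that hold one, Prkar1a rose, Prkcz, Adcy9 and Pde4b did not pass the test, and Pde4a was under the filter.

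Among the cyclases 2 of 8 past the filter fell (25.0%, against 5.34% of all genes) and 0 rose (against 17.7%). Before adjustment, likewise 2 were lower and 0 higher at a limma p under 0.05, against 9.04% and 27.0% of all genes. Adcy7, a cyclase that G protein beta-gamma subunits can enhance, was at 405 and 452 units on the TRAP arrays, against 789 and 853 units on the input arrays. The log2 fold change was -0.94 ± 0.09 (limma adjusted p = 0.0159), and no TRAP array reached an input array. Its 2 other probe sets lay below the filter, and with the mean of all its probe sets the log2 fold change was 0.02. Adcy8, a calcium-stimulated cyclase, was at 159 and 151 units in TRAP and 274 and 314 units in input, with a log2 fold change of -0.92 ± 0.10 (limma adjusted p = 0.0189). It has 1 probe set, and both of its TRAP values were near each other.

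Adcy1, the other calmodulin-stimulated cyclase of neurons, was at 1163 and 1848 units in TRAP and 1355 and 4333 units in input. The input arrays were over 2-fold apart, and the fractions overlapped (log2 fold change -0.73 ± 0.84). Adcy5, the main cyclase of the striatum, was at 3645 and 5323 units in TRAP and at 2066 and 3495 units in input, without overlap (log2 fold change 0.71 ± 0.43, limma adjusted p = 0.276). Adcy3, known for odour transduction and for its place in neuronal cilia, was at 238 and 388 units in TRAP and 111 and 143 units in input. Its log2 fold change of 1.27 ± 0.37 (limma adjusted p = 0.0923) was the highest of the cyclases past the filter and did not pass. Adcy9 had a log2 fold change of -0.68 ± 0.21 (limma adjusted p = 0.102), and both TRAP arrays were below both input arrays. Adcy2 (log2 fold change 0.23 ± 0.37) and Adcy6, a close relative of Adcy5 (log2 fold change -0.31 ± 0.60), overlapped between the fractions. Adcy4 and Adcy10, the bicarbonate-sensitive soluble cyclase, were under 50 units on all 4 arrays.

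**Figure D2:**
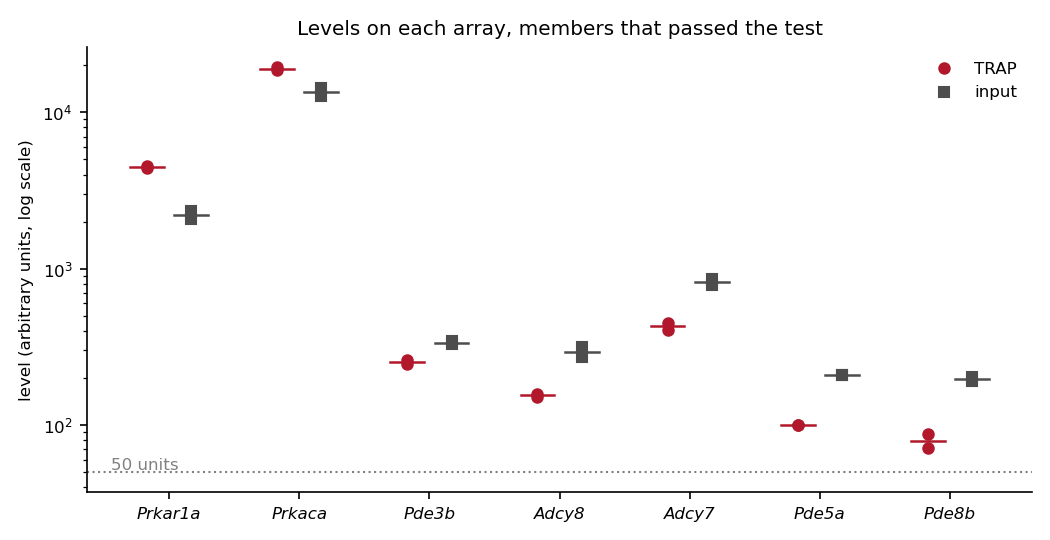
Level on each array, in arbitrary units on a log scale, for the 7 genes that passed the test, TRAP left and input right of each gene, with bars at the mean of the log2 values; the dotted line is 50 units. The 2 TRAP arrays and the 2 input arrays of each gene do not overlap, with Prkar1a and Prkaca higher and the 5 others lower in TRAP, and levels compare within a gene only. The genes were picked by the test on these same values, so their separation is no further support.

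Of 14 phosphodiesterases past the filter, 3 fell (21.4%, against 5.34% of all genes) and 0 rose (against 17.7%). Before adjustment, 5 were lower (35.7%, against 9.04% of all genes) and 2 higher (14.3%, against 27.0%) at a limma p under 0.05. Pde5a, which is specific for cyclic GMP and known from smooth muscle, was at 100.3 units on both TRAP arrays and at 208 and 210 units on the input arrays. Its log2 fold change was -1.06 ± 0.01 (limma adjusted p = 5.86e-05). The TRAP values are identical, so no spread was seen in that fraction. The probe set is of the x_at kind, whose probes can match other transcripts, and the 2 other probe sets of Pde5a were under 50 units on all 4 arrays. With the 3 probe sets averaged the log2 fold change was -0.37 ± 0.09 and the gene was not called (limma adjusted p = 0.0843, in a range of 3.43e-05 to 0.0843 over the alternatives). Pde8b, specific for cyclic AMP, was at 87.6 and 71.8 units in TRAP and 192 and 202 units in input. The fractions lay apart, with a log2 fold change of -1.31 ± 0.14 (limma adjusted p = 0.0189). Pde3b, which hydrolyses cyclic AMP and is inhibited by cyclic GMP, was at 247 and 261 units in TRAP and 346 and 328 units in input. Its difference was smaller, a log2 fold change of -0.41 ± 0.05 (limma adjusted p = 0.0259).

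The highest phosphodiesterase values in TRAP relative to input belonged to genes that missed the threshold. Pde2a, a dual enzyme that cyclic GMP activates, was at 15599 and 16505 units in TRAP and 3981 and 6293 units in input, without overlap. The log2 fold change was 1.68 ± 0.31 (limma adjusted p = 0.0509), and its other probe set past the filter did pass. Pde6d, a carrier of prenylated proteins that was named as a subunit of the photoreceptor enzyme and has no phosphodiesterase activity itself, was at 1138 and 1181 units in TRAP and 380 and 205 units in input (log2 fold change 2.05 ± 0.41, limma adjusted p = 0.0592). Pde10a, a dual enzyme best known from striatal projection neurons, was at 814 and 1170 units in TRAP and 462 and 231 units in input (log2 fold change 1.58 ± 0.52, limma adjusted p = 0.116). All 3 had both TRAP arrays above both input arrays, as did 52.4% of all genes past the filter.

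The calmodulin-dependent Pde1 genes did not run one way. Pde1a was at 94.9 and 160 units in TRAP and at 35.3 and 70.5 units in input, so that 1 input array was below background, with a log2 fold change of 1.30 ± 0.58. Pde1b overlapped between the fractions (log2 fold change 0.26 ± 0.25). Pde1c was at 131 and 104 units in TRAP and 261 and 216 units in input, with a log2 fold change of -1.02 ± 0.20 (limma adjusted p = 0.0559). Neither of the differences of Pde1a and Pde1c passed, and the difference between these genes was not tested.

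Among the phosphodiesterases that act on cyclic AMP only, Pde4b, a major rolipram-sensitive enzyme, was at 762 and 780 units in TRAP and 1242 and 1009 units in input (log2 fold change -0.54 ± 0.14, limma adjusted p = 0.0852). Pde4d overlapped between the fractions (log2 fold change 0.30 ± 0.32). Pde7a was at 320 and 337 units in TRAP and 558 and 388 units in input (log2 fold change -0.50 ± 0.25). Pde7b was at 143 and 43.0 units in TRAP and 255 and 637 units in input, with a log2 fold change of -2.36 ± 1.01 (limma adjusted p = 0.171). Pde8a was at 451 and 117 units in TRAP and 944 and 358 units in input, so that the fractions overlapped (log2 fold change -1.34 ± 1.12). Pde7b and Pde8a were over 2-fold apart within both fractions. Pde3a, Pde11a and the photoreceptor genes Pde6a, Pde6b and Pde6c were under 50 units on all 4 arrays, and Pde4a (48.6 and 54.0 units in TRAP, 17.2 and 51.5 units in input) and Pde9a (67.6 and 25.9 units in TRAP, 50.9 and 57.7 units in input) lay around background.

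PKC isoforms gave 0 calls among 6 past the filter, where 17.7% of all genes rose and 5.34% fell. Before adjustment, 2 were higher (33.3%, against 27.0% of all genes) and 0 lower (against 9.04%) at a limma p under 0.05. Prkca, a conventional isoform that needs calcium and diacylglycerol, was at 3592 and 5776 units in TRAP and 1260 and 2053 units in input. The fractions did not overlap, and the log2 fold change was 1.502 ± 0.46 (limma adjusted p = 0.1003). Prkce, a calcium-independent isoform, was at 3654 and 3282 units in TRAP and 2264 and 1725 units in input (log2 fold change 0.81 ± 0.20, limma adjusted p = 0.0808). Prkcz, an atypical isoform that needs neither calcium nor diacylglycerol, was at 2206 and 1777 units in TRAP and 1264 and 1259 units in input (log2 fold change 0.65 ± 0.15, limma adjusted p = 0.0705). These 3 genes lay higher on both TRAP arrays than on either input array, as did 52.4% of all genes past the filter. The atypical Prkci (log2 fold change 0.36 ± 0.18) also did not overlap, and the conventional Prkcb did (log2 fold change 0.37 ± 0.42).

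The 3 isoforms Prkcd, Prkch and Prkcq, all independent of calcium, were under 50 units on both TRAP arrays and over it on both input arrays, so their folds are lower bounds against 50 units. Prkcd was at 24.2 and 23.7 units in TRAP and at 80.9 and 472 units in input, at least 3.91-fold lower over both input arrays (limma adjusted p = 0.149). That bound rests on input replicate 2, and against input replicate 1 alone it is 1.62-fold. Prkch was at 9.29 and 8.13 units in TRAP and 55.0 and 91.7 units in input, at least 1.42-fold lower, and Prkcq at 30.02 and 21.9 units in TRAP and 82.0 and 90.5 units in input, at least 1.72-fold lower. Prkch and Prkcq had limma adjusted p of 0.0229 and 0.0264, and their mean over the 4 arrays was under the filter, so they are not among the calls.

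Of the 45 genes 31 have several probe sets, and for 18 of them at least 2 probe sets passed the filter. The sign of the log2 fold change differed between those probe sets for 6 of the 18 genes. Pde2a was at 2010 and 2938 units in TRAP and 247 and 389 units in input on its other probe set, a rise with a log2 fold change of 2.97 ± 0.40 (limma adjusted p = 0.0292). Prkar1b had 4 probe sets past the filter, and on the 3 with lower levels it rose, with log2 fold changes of 1.08, 1.73 and 1.80 against 0.45 on the probe set with the highest mean. Where the change was 1.80, both TRAP arrays were at 3426 units, so no spread was seen in that fraction. Prkaca rose on both of its probe sets, with a log2 fold change of 0.50 on the one with the highest mean and 1.29 ± 0.11 on the other (limma adjusted p = 0.0119). For Pde2a, Prkar1b and Prkaca the probe set with the highest mean thus had the lowest log2 fold change of those past the filter. The probe sets with the highest mean of Prkar1b and Prkaca are of the x_at kind, like that of Pde5a.

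The probe sets of other genes spread more. Prkar2a had a log2 fold change of -0.11 on the probe set with the highest mean and 1.06 ± 0.33 on the other (limma adjusted p = 0.107). Pde8b fell on 1 probe set and had a log2 fold change of 0.27 ± 0.63 on the other, where it was at 181 and 88.0 units in TRAP and 142 and 77.2 units in input. Pde7a, which did not pass on the probe set with the highest mean, fell on another, at 126 and 122 units in TRAP and 353 and 401 units in input (log2 fold change -1.60 ± 0.09, limma adjusted p = 0.0057). Adcy1, Adcy5, Adcy9 and Prkcb also had values of both signs, and none of their probe sets passed. Probe sets of a gene can detect different transcript ends, which the deposited values do not separate.

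**Figure D3:**
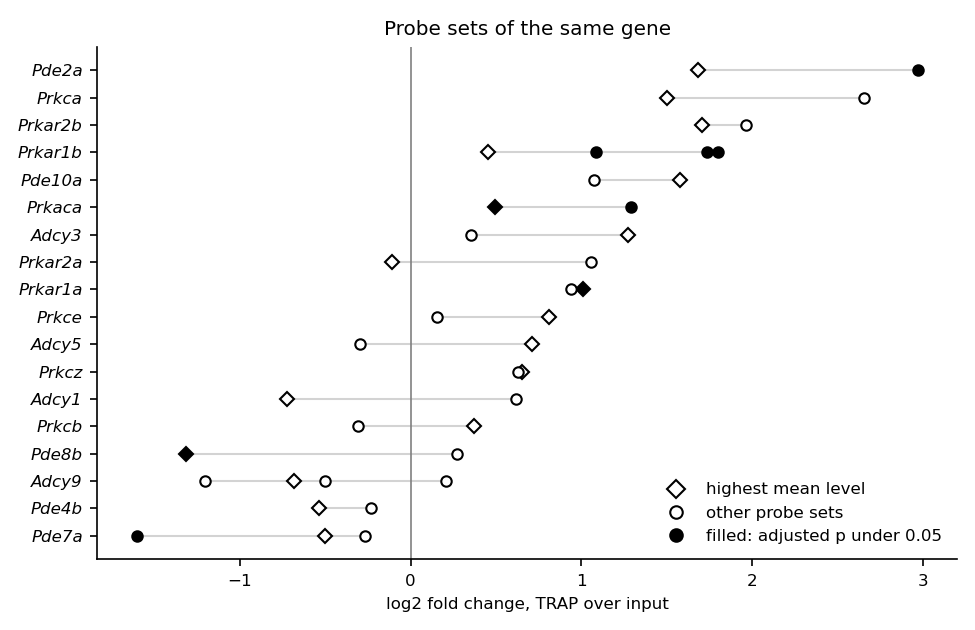
TRAP over input as a log2 fold change, for every probe set past the mean filter of the 18 genes with at least 2 of them, with diamonds for the probe set with the highest mean level, circles for the others and filled symbols for those that passed the test. Prkar1b runs between 0.45 and 1.80, Pde2a between 1.68 and 2.97, and 6 genes have values on both sides of 0.

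The TRAP arrays differed from each other in glial and GABAergic markers and, the other way, in the cyclases, in which the input arrays also differed. For TRAP replicate 2 minus TRAP replicate 4, the 8 cyclases past the filter had a median of -0.49 log2 units, with 2 of them higher on replicate 2, against 4529 of all 9507 genes. The medians were -0.04 for the 14 phosphodiesterases, -0.04 for the 6 PKA subunits and 0.09 for the 6 PKC isoforms. The median was 1.47 for the 8 oligodendrocyte markers, 0.81 for the 8 astrocyte markers and 1.68 for the 7 GABAergic neuron markers past the filter, and -0.30 for the 8 dopamine neuron markers. For input replicate 1 minus input replicate 2, the median was -0.52 for the 8 cyclases. It was -0.02 for the oligodendrocyte, -0.30 for the astrocyte, 0.30 for the GABAergic and 0.46 for the dopamine neuron markers. Larger differences were seen for the 3 microglia markers past the filter, with a median of -1.07, and for the 1 serotonergic marker. That marker, Tph2, was at 604 and 69.3 units on input replicates 1 and 2. Pde7b and Pde8a were over 2-fold higher on TRAP replicate 2, and 0 of the 34 genes were over 2-fold higher on replicate 4. Of the genes that fell, Adcy7 and Pde3b were lower on TRAP replicate 2 and Adcy8 and Pde8b were lower on TRAP replicate 4. With 1 array on each side, no test of these values was made.

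**Figure D4:**
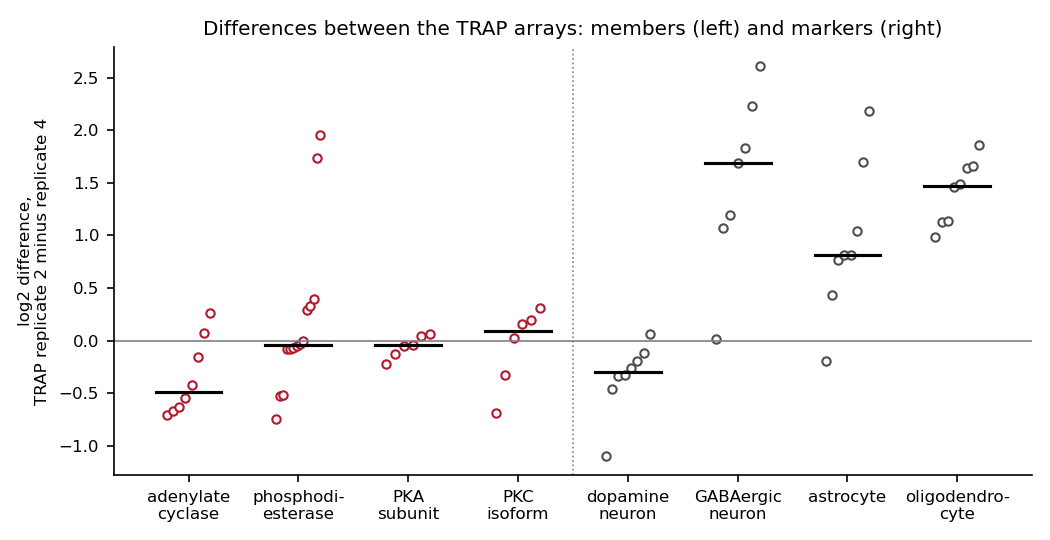
Log2 difference between TRAP replicate 2 and TRAP replicate 4 for the genes past the mean filter of each family (left of the dotted line) and for cell type markers (right), each point 1 gene and each bar the median. Oligodendrocyte markers have a median of 1.47, cyclases one of -0.49 and PKA subunits one of -0.04, and the 2 phosphodiesterases that stand apart are Pde7b and Pde8a.

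Around these enzymes, 2 of the 12 G protein and phospholipase genes past the filter rose and 0 fell. The rises are 16.7% of that list, against 17.7% of all genes, and its median log2 fold change was 0.54, against 0.44, so the list stood near the level of all genes. Gnas, the G protein subunit that stimulates cyclases, was at 25313 and 25482 units in TRAP and 13536 and 13058 units in input (log2 fold change 0.93 ± 0.02, limma adjusted p = 0.00131). Plcg2, a phospholipase C that makes diacylglycerol, rose with a log2 fold change of 1.19 ± 0.18 (limma adjusted p = 0.0358), and Gnai1, an inhibitory subunit, had one of 0.59 ± 0.22. Of 14 anchoring proteins and PKA inhibitors past the filter, 0 rose and 0 fell, against 17.7% and 5.34% of all genes. Before adjustment, 1 was higher and 1 lower (7.14% each, against 27.0% and 9.04% of all genes) at a limma p under 0.05. Pkia, an inhibitor peptide of PKA, had a log2 fold change of 1.17 ± 0.39, and Akap11, an anchoring protein, one of -0.55 ± 0.29.

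Of 15 partners and substrates of PKC past the filter, 2 fell (13.3%, against 5.34% of all genes) and 0 rose (against 17.7% of all genes). Dgkk, a diacylglycerol kinase, was at 480 and 461 units in TRAP and 964 and 1214 units in input (log2 fold change -1.20 ± 0.16, limma adjusted p = 0.0281). Marcks, a membrane-bound PKC substrate, fell with a log2 fold change of -0.73 ± 0.11 (limma adjusted p = 0.0386), and Gap43, a PKC substrate of axons, had one of 1.37 ± 0.39 (limma adjusted p = 0.0893). The 7 targets of PKA past the filter gave 0 calls, where 17.7% of all genes rose and 5.34% fell. Before adjustment, 1 was higher (14.3%, against 27.0% of all genes) and 0 lower (against 9.04%) at a limma p under 0.05. Creb1 had a log2 fold change of -0.27 ± 0.11 and Ensa one of 1.12 ± 0.23. The other phosphodiesterase and cyclase partners, of which 7 passed the filter with Pde6d among them, also gave 0 calls. Before adjustment, 2 of these were higher (28.6%, against 27.0% of all genes) and 0 lower (against 9.04%) at a limma p under 0.05. Adcyap1r1, the receptor for the peptide PACAP, had a log2 fold change of -0.16 ± 0.35. Of the cyclic AMP effectors other than PKA, Rapgef3, an exchange factor for Rap, was past the filter, with a log2 fold change of -1.93 ± 0.50 (limma adjusted p = 0.0852).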

How the data were processed

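RNA of 2 TRAP and 2 input samples was amplified with the Affymetrix two-cycle kit (up to 10 ng) and measured on Affymetrix 430 2.0 arrays. The authors processed the arrays in R with GCRMA (version not given in the sources used here). They deposited log2 values, 1 per array for each of 45101 probe sets, which were used without renormalization. In these values 15551 probe sets are identical within both fractions, at low levels that differ between probe sets, and their p-values are not informative. Identical values within 1 fraction also occur at higher levels, as for Pde5a.

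After 64 Affymetrix controls were left out, TRAP was compared with input over 45037 probe sets with limma 3.58.1 in R 4.3.3 (2-sided, 2 residual and 0.317 prior degrees of freedom, Benjamini-Hochberg adjustment, threshold 0.05). The platform annotation gives 34945 probe sets 1 gene symbol, 932 several and 9160 none. Members match Adcy, Pde, Prka or Prkc symbols, and all 45 symbols were the same in RefSeq. Genes are counted where the mean log2 level reaches that of 50 units, and where both arrays of a fraction lie under 50 units the fold is a bound against 50. The fit takes the 4 arrays as independent, although TRAP replicate 2 and input replicate 2 may share a pool of mice. P-values weigh the spread between arrays, and the number of arrays limits the precision. An exact permutation test of 2 against 2 arrays cannot go below 0.333 and was not used. All members and the pathway and marker lists may be named, the lists by up to 3 genes (genes past the test by size of change, then by level), of which 1 to 3 are given. The members and lists were chosen with earlier results of these data known. The fit was tested on simulated data. Alternatives were other normalizations, filters, thresholds and priors, averaging a gene's probe sets, and each array left out.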

Additional observations from a re-analysis of the deposited data

How the results depend on the processing

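No paired analysis was possible because the fractions share only 1 replicate number. On the deposited values 2 genes of the cyclase, phosphodiesterase, PKA and PKC families rose and 5 fell. The counts of rises and falls were 1 and 7 after quantile normalization, 4 and 10 with the arrays centred on bright probe sets, 4 and 3 with only probe sets past the mean filter fitted, 0 and 1 with values under 50 units raised to 50, 7 and 6 with an intensity trend in the prior, and 6 and 2 with a gene's probe sets averaged. They were 5 and 8 with no filter on the mean level, 0 and 1 at an adjusted p under 0.01, and 9 and 7 at one under 0.1. With values raised to 50 units most probe sets have no spread within the fractions, and limma warned that its variance estimate was then unreliable. Over the 9507 genes past the filter, rises and falls were 17.7% and 5.34% on the deposited values, 10.8% and 8.93% after quantile normalization, and 20.3% and 19.5% after centring. They were 20.5% and 6.95% with the restricted fit, 24.7% and 7.98% with the trend, and 4.0% and 1.41% with values raised to 50 units. At an adjusted p under 0.01 they were 4.47% and 1.43%, and at one under 0.1 they were 30.8% and 10.8%. With probe sets averaged they were 21.0% and 5.21% of 7115 genes, and with no filter 19.8% and 19.0% of all 18193 genes. A mean level of at least 100 units gave 2 rises and 5 falls in the families (17.5% and 4.51% of all genes past it). A filter of 50 units on both arrays of at least 1 fraction gave 2 and 7 (18.7% and 6.87% of all genes past it). With 1 array left out, a fraction with 1 array is assumed to vary like the other, so the numbers of calls are not compared. Of the 2 rises and 5 falls on the deposited values, 1 and 5 were also called after quantile normalization, 1 and 5 after centring, 1 and 3 with the restricted fit, and 1 and 2 with probe sets averaged. The share of rises among all calls over all genes was 76.8% on the deposited values, 54.7% after quantile normalization and 50.9% after centring, and that among the families 28.6%, 12.5% and 28.6%.

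Of the 7 calls, Adcy7 changed sign with its probe sets averaged, to a log2 fold change of 0.023. The other changes of sign were in genes that did not pass. After quantile normalization these were Adcy2 (-0.26), Pde1b (-0.10), Pde4d (-0.22), Prkacb (-0.40), Prkcb (-0.15) and Prkci (-0.15). After centring they were Adcy2 (-0.18), Pde1b (-0.15), Pde4d (-0.11), Prkacb (-0.28), Prkcb (-0.036) and Prkci (-0.0454). With probe sets averaged they were Pde4d (-0.48), Prkar2a (0.49, limma adjusted p = 0.0110, where the range over its alternatives was 0.0110 to 1.0) and Prkcb (-0.0387). Averaging takes in probe sets below the filter. On such a probe set Prkar2a was at 9.58 units on both TRAP arrays and 4.68 units on both input arrays. With 1 array left out, the log2 fold change ranged from -1.56 to 0.11 for Adcy1, from -0.12 to 0.57 for Adcy2, from -0.87 to 0.25 for Adcy6, from -0.45 to 0.22 for Prkar2a and from -0.0637 to 0.81 for Prkcb. The causes of these changes were not tested.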
